A study of Mus musculus with 93 samples.

Results

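Hormone levels and enzyme activity are not part of these data, and only RNA was followed. It was read for 10 genes of hormone synthesis and progesterone breakdown in granulosa cells and oocytes of Esr2 knockout and wild type mice: Star, Cyp11a1, Fdx1, Hsd3b1, Cyp17a1, Hsd17b1, Hsd17b7, Cyp19a1, Akr1c18 and Akr1cl. They were taken by symbol from the deposited gene count tables, and are 10 of the 24047 genes that have a row in at least 1 of the 6 tables. All 10 had a row in granulosa cells at 4 weeks, and Cyp17a1 was not analysed at the other ages. In oocytes 8 had a row at 4 weeks and at 6 months, where Hsd17b1 and Cyp17a1 were not analysed, and 9 at 7 weeks.

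Esr2 encodes estrogen receptor beta, the estrogen receptor that predominates in granulosa cells, which enclose and feed the oocyte inside the follicle. Sex steroids are built from cholesterol in steps that move from the mitochondrion to the endoplasmic reticulum and, in the follicle, from cell type to cell type. Star brings cholesterol to the inner mitochondrial membrane, Cyp11a1 cuts its side chain to give pregnenolone with electrons that ferredoxin, the product of Fdx1, passes on, and Hsd3b1 turns pregnenolone into progesterone. Theca cells, which lie outside the follicle wall, use Cyp17a1 to make androgens, and granulosa cells convert these into estrogens with aromatase (Cyp19a1), while Hsd17b1 turns estrone into estradiol. Hsd17b7 can do the same and also takes part in cholesterol synthesis. Akr1c18 inactivates progesterone and is best known in mice for the fall of progesterone before birth. Akr1cl is a related aldo-keto reductase gene, grouped here by its sequence family.

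The 93 libraries were made from small RNA inputs with Smart-seq2, which copies whole transcripts, from ovaries of Esr2 knockout (KO) and wild type (WT) mice. The labels give no allele, strain, sex or cell number. Of granulosa cells there were 7 KO and 7 WT libraries from 4 week old mice, 5 KO and 5 WT from 7 week old mice, and 6 KO and 12 WT from 6 month old mice. Of oocytes there were 7 KO and 12 WT libraries from 4 week, 12 KO and 5 WT from 7 week, and 4 KO and 11 WT from 6 month old mice. The column of 1 of the 7 week KO oocyte libraries joins sample numbers 4 and 5, and it was kept as a library without a number. Granulosa libraries held 702726 to 6469419 counts and oocyte libraries 1814958 to 7751953, so the precision of low genes differs between libraries. Esr2 had 0 counts in each of the KO granulosa libraries, while the WT medians were 33.1, 27.6 and 10.8 CPM (counts scaled to a library total of 1000000) at 4 weeks, 7 weeks and 6 months. KO oocytes held 1 Esr2 count at 4 weeks, 4 at 7 weeks and 0 at 6 months, and the WT oocyte medians were 94.7, 66.5 and 77.3 CPM. Levels below are CPM of the library total. Differences are log2 fold changes, KO over WT or later over earlier age, with their standard error (SE), from edgeR's quasi-likelihood test, and a gene was called at an adjusted p below 0.05 over all genes tested. No animal or culture is named, so the p-values measure the spread between libraries, which may be partly technical. Where groups are said not to overlap, the share of all genes without overlap was not counted.

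Start regions of 4 genes that the results turn on are printed from RefSeq (build GRCm38.p6), 250 bases before to 50 bases from the annotated start, on the gene's own strand. Akr1c18 and Cyp11a1 were the 2 enzymes called lower in KO granulosa cells at 4 weeks, and Hsd17b7 and Cyp19a1 were the 2 whose oocyte levels stood closest to, or above, those of granulosa cells. Capitals mark the nuclear receptor core motif AGGTCA or its complement TGACCT.
Akr1c18, chr13:4150597-4150896, minus strand: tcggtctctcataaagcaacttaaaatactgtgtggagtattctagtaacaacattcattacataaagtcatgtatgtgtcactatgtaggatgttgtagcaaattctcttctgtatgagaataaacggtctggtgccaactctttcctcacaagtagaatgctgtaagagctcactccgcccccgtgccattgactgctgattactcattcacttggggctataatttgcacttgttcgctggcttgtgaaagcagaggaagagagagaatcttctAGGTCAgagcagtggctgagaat
Cyp11a1, chr9:58014702-58015001, plus strand: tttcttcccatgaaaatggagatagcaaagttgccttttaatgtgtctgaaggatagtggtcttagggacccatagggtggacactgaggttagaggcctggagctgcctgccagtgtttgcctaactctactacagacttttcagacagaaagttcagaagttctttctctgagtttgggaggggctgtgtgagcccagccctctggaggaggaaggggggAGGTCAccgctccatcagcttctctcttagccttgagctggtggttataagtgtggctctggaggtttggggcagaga
Hsd17b7, chr1:169969156-169969455, minus strand: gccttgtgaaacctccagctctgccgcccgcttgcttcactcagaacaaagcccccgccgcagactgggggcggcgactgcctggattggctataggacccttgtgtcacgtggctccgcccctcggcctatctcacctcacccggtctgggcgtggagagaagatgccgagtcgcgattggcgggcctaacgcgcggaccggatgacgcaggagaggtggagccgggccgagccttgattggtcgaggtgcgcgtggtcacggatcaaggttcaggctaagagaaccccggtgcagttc
Cyp19a1, chr9:54193694-54193993, minus strand: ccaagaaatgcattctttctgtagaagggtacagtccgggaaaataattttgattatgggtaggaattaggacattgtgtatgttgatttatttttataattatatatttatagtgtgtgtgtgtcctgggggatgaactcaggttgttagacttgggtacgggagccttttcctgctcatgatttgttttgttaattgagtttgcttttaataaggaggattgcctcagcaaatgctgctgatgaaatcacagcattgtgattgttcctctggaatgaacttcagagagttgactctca
The core motif begins at base 27 after the start of Akr1c18 and 28 bases before this start of Cyp11a1, and it is in neither of the other 2 windows, nor in that of a second Cyp11a1 start at chr9:57997774-57998073. It was added to the search after the sequences had been read, and 16.26% of 32851 such mouse windows hold it on either strand. Of 3 Cyp19a1 starts, the window at chr9:54268115-54268414 holds TGACCT 81 bases before its start. Star, Hsd17b1 and Cyp17a1 had no window here and were not searched. The NR5A motif AAGGTCA, in 4.718% of windows, contains that core and was in none of the windows of the other members. The palindromic estrogen response element, searched with any 3 bases between its arms (0.07001% of windows), and the cAMP response element TGACGTCA (1.79%) were also in none. The GATA motif AGATAA, in 11.18% of windows, was found in those of Akr1cl and Hsd3b1. A match or its absence describes these letters in this window only.

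In granulosa cells RNA of the progesterone enzymes was abundant and that of the estrogen enzymes low. Per kilobase of annotated exon, the order in WT cells at 4 weeks was led by Hsd3b1 with 3229 ± 1210 CPM per kilobase (SD, n = 7). Akr1cl followed with 1502 ± 249.7, Akr1c18 with 1210 ± 433 and Cyp11a1 with 1039 ± 544. The last 3 lay within each other's spread. Fdx1 had 611 ± 147 CPM per kilobase, Star 90.0 ± 41.9 and Hsd17b1 81.9 ± 28.0, and Star and Hsd17b1 could not be ordered. Hsd17b7 had 35.9 ± 13.1 and aromatase 1.52 ± 0.739 CPM per kilobase. In KO cells of that age Akr1c18 stood at rank 5 with 219 ± 107 CPM per kilobase, behind Hsd3b1, Akr1cl, Fdx1 and Cyp11a1. Cyp17a1, the theca enzyme, was close to absent from granulosa libraries: 10 counts in 2 of 7 KO libraries and 9 counts in 4 of 7 WT libraries at 4 weeks, too few to test.

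Exons of 2 of these genes overlap other annotated genes. Cyp11a1 shares 145 exon bases with Gm17322 on its own strand, and Akr1cl shares 494 with the pseudogene Gm8550 on the other strand. Of the 50 base stretches in their transcripts, 10.57% for Akr1cl, 4.862% for Hsd3b1, 2.061% for Cyp11a1 and 0.5809% for Akr1c18 also occur in another gene, and none for the other 6. On GRCm38, Akr1c18, lies on the minus strand at chr13:4132615-4150654 and Akr1cl at chr1:65012689-65032759, also minus. Cyp11a1 lies at chr9:58006411-58027023 (plus), Cyp19a1 at chr9:54165937-54268110 (minus) and Fdx1 at chr9:51943306-51963556 (minus). Star lies at chr8:25806555-25815982 (plus), Hsd3b1 at chr3:98852194-98859794 (minus), Hsd17b1 at chr11:101078411-101080527 (plus), Hsd17b7 at chr1:169949535-169969241 (minus) and Cyp17a1 at chr19:46667165-46673172 (minus). Whether counting used strand is not given in the sources used here, so part of the Akr1cl counts cannot be assigned with certainty.

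**Figure D1:**
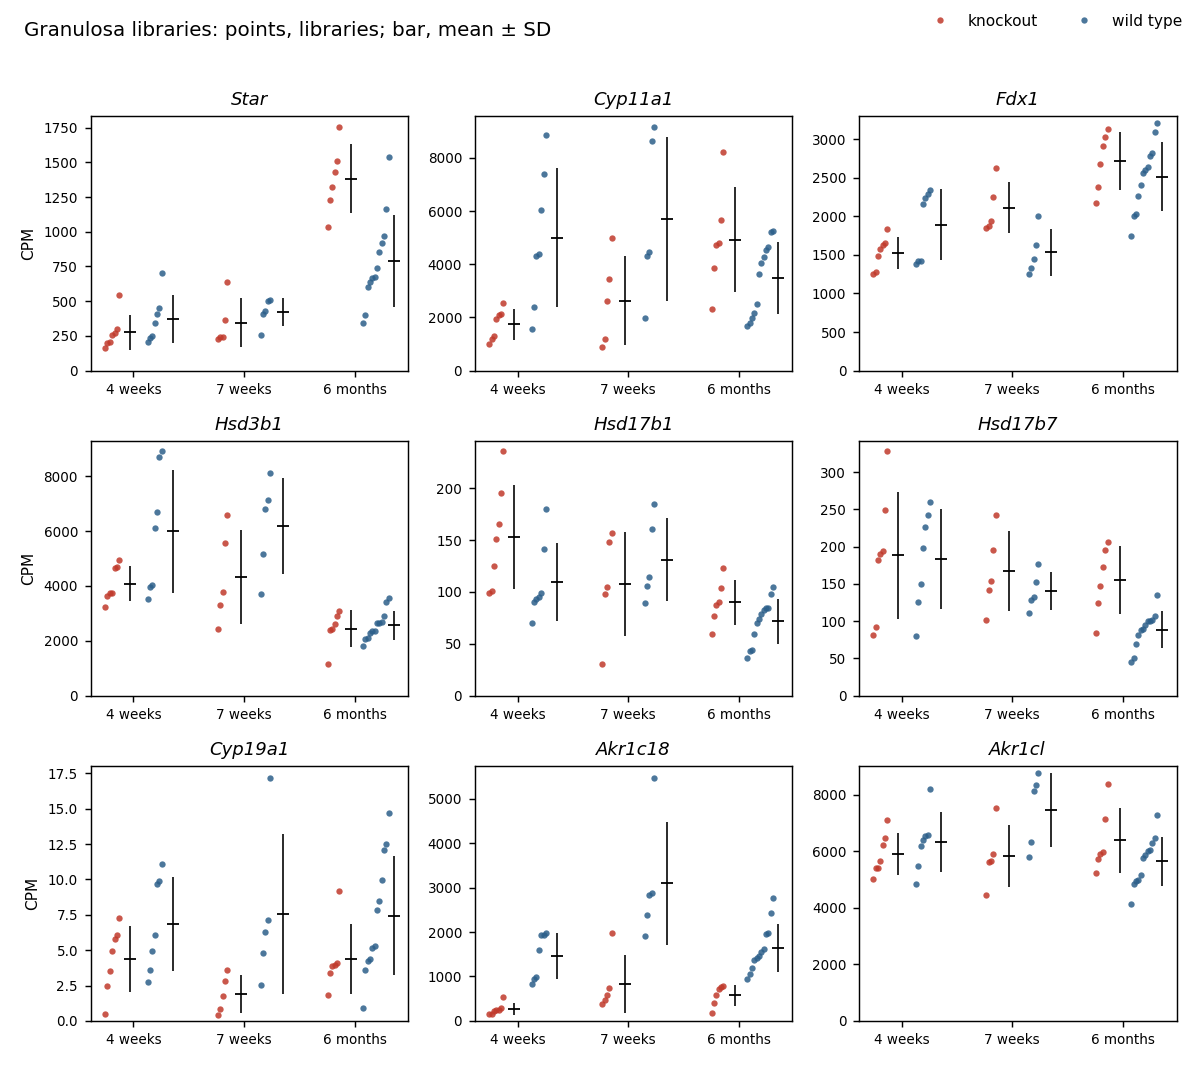
CPM of 9 enzyme genes in each granulosa library, by age, with KO left of WT (points, libraries; bars, mean with SD). Among these 9 genes only the KO and WT libraries of Akr1c18 do not overlap at 4 weeks and at 6 months, and how many of all genes separate this way was not counted.

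At 4 weeks KO granulosa cells had less RNA of Cyp11a1, the first enzyme of the pathway, and of Akr1c18, which inactivates progesterone. Akr1c18 was 156, 234 and 537.5 CPM (lowest, median, highest) in KO libraries, against 838, 1603 and 1987 CPM in WT libraries. Every KO library lay below every WT library, and the log2 fold change was -2.52 ± 0.31 (adjusted p = 5.73e-05). Cyp11a1 was 986, 1950 and 2542 CPM in KO libraries, against 1578, 4380 and 8853 CPM in WT libraries. All 7 KO libraries lay under the WT median and 3 of them under the lowest WT library, with a fold change of -1.58 ± 0.35 (adjusted p = 0.0136). In bulk RNA, fewer cells of a type and less RNA per cell cannot be told apart. These 2 were the members called, of 9 tested, where 2.33% of all 12161 genes were called and 1.35% were called lower. The median over the 9 was -0.49, and over all genes -0.02.

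The other steps at 4 weeks did not pass the test. Star, which serves cholesterol import, was 164, 256 and 543 CPM in KO against 205, 345 and 700.4 CPM in WT libraries (-0.49 ± 0.32, adjusted p = 0.744). Fdx1, the electron donor of Cyp11a1, was 1252, 1578 and 1838 CPM in KO against 1380, 2157 and 2345 CPM in WT (-0.36 ± 0.21, adjusted p = 0.622). Hsd3b1 was 3237, 3737 and 4927 CPM in KO against 3517, 6113 and 8901 CPM in WT (-0.63 ± 0.25, adjusted p = 0.293). For both of these, all 7 KO libraries lay under the WT median while the ranges overlapped. Hsd17b1 leaned the other way, with 99.2, 151 and 235.5 CPM in KO and 70.02, 95.4 and 179.5 CPM in WT libraries. All 7 KO libraries were above the WT median, but its 0.41 ± 0.26 did not pass (adjusted p = 0.714). Aromatase was 0.515, 4.94 and 7.25 CPM in KO and 2.74, 6.05 and 11.1 CPM in WT (-0.76 ± 0.49, adjusted p = 0.72). Hsd17b7 (-0.01 ± 0.31) and Akr1cl (-0.15 ± 0.19) had values near 0 with adjusted p of 0.998 and 0.923.

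Marker levels of other cells were summed at 4 weeks. The 14 immune markers, all with a row, summed to 336 to 696 CPM in KO and 485 to 2231 CPM in WT libraries. The 12 granulosa markers summed to 6708 to 10902 CPM in KO and 5154 to 8789 CPM in WT, and the 7 luteal markers to 1649 to 2973 CPM and 1284 to 2820 CPM. Within the luteal list the receptor genes Lhcgr (-4.24 ± 0.42), Ptgfr (-2.71 ± 0.45) and Prlr (-1.16 ± 0.25) were called lower in KO. The other luteal markers are not given singly, and the sum over all 7 was not lower in KO (median 2461 CPM in KO and 2223 CPM in WT). The 6 endothelial markers, 4 with a row and Tek and Emcn at 0 or without one, summed to 14.8 to 26.04 CPM in KO and 13.9 to 42.5 CPM in WT. The part of these cells in the enzyme differences was not tested. Theca and stroma markers were low, with 47.4 to 95.3 CPM in KO and 39.5 to 142 CPM in WT over 13 genes, and the theca markers Insl3 and Tcf21 were at 0 or without a row.

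At 7 weeks Akr1c18 stood at the edge of the threshold. It was 390, 468, 577, 736.5 and 1988 CPM in the 5 KO libraries, against 1919, 2376, 2835, 2880 and 5474 CPM in the 5 WT libraries. Only KO library 1 reached into the WT range. That library held 714212 counts, with 3711 CPM of immune markers where the other KO libraries held 308 to 553 CPM and WT libraries 464 to 3282 CPM, and with 70.01 CPM of oocyte markers where the other KO libraries held 15.1 to 18.8 CPM. Without it the fold change was -2.56 (adjusted p = 0.00675), where all 10 libraries gave -1.96 ± 0.43 (adjusted p = 0.05004). Cyp11a1 was 901, 1187, 2618, 3442 and 4978 CPM in KO against 1984, 4303, 4476, 8622 and 9180 CPM in WT. The groups overlapped, and -1.19 ± 0.49 did not pass (adjusted p = 0.228). Aromatase was 0.419, 0.853, 1.75, 2.80 and 3.61 CPM in KO against 2.52, 4.78, 6.27, 7.12 and 17.2 CPM in WT. That is 31 counts over the KO group and 133 over the WT group, and -2.09 ± 0.68 did not pass (adjusted p = 0.146).

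None of the 9 members was called at 7 weeks, where 0.8% of 12002 genes were called and 2227 genes had an unadjusted p below 0.05. DESeq2 and limma voom each called 1 member, Akr1c18. Hsd3b1 (-0.59 ± 0.31, adjusted p = 0.311) and Akr1cl (-0.43 ± 0.22, adjusted p = 0.304) lay below the WT median in 5 of 5 KO libraries, and Fdx1 (0.39 ± 0.22, adjusted p = 0.336) above it in 5 of 5. Star had -0.38 ± 0.33, Hsd17b1 -0.36 ± 0.36 and Hsd17b7 0.17 ± 0.26. The median over members was -0.43 and over all genes 0.01. Markers of the ovarian surface epithelium, 9 of 9 with a row, summed to 140 to 448 CPM in KO and 587 to 1857 CPM in WT libraries, with no overlap, and their part in these values was not tested.

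At 6 months KO cells had more RNA of Star and Hsd17b7 and less of Akr1c18. Akr1c18 was 183, 647 and 789.9 CPM in KO, against 933, 1499 and 2758 CPM in WT libraries. All 6 KO libraries lay below all 12 WT libraries (-1.38 ± 0.28, adjusted p = 0.0034). Star was 1034, 1377 and 1757 CPM in KO, against 342, 703 and 1539 CPM in WT libraries. All 6 KO libraries were above the WT median, and 1 above the highest WT library (0.92 ± 0.24, adjusted p = 0.0187). Without KO library 3 the value was 0.83 (adjusted p = 0.0518). Hsd17b7 was 84.3, 124, 147, 173, 195 and 206 CPM in KO libraries, against 45.1, 92.4 and 136 CPM in WT (lowest, median, highest). Of the 6 KO libraries 4 were above every WT library (0.94 ± 0.22, adjusted p = 0.00842).

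These 3 were the members called of 9 tested at 6 months, 2 higher and 1 lower, where 12.6% of 12505 genes were called. Cyp11a1 was 2312, 4756 and 8218 CPM in KO and 1687, 3848 and 5239 CPM in WT (0.63 ± 0.30, adjusted p = 0.151). Fdx1 (0.25 ± 0.15), Hsd17b1 (0.45 ± 0.21), Akr1cl (0.30 ± 0.15), Hsd3b1 (0.06 ± 0.20) and aromatase (-0.58 ± 0.44) did not pass, with adjusted p of 0.259, 0.149, 0.174, 0.854 and 0.367 in that order. The median over members was 0.30, and over all genes -0.02. The 7 luteal markers, all with a row, summed to 2560 to 3756 CPM in KO and 1016 to 2431 CPM in WT libraries, with no overlap. Those markers did not all go that way. Ptgfr was called lower (-2.29 ± 0.46, adjusted p = 0.00312), and Lhcgr and Prlr were not among the genes called. Immune markers, 14 of 14 with a row, summed to 401 to 1247 CPM in KO and 363 to 5328 CPM in WT. The part of these cells or states in the result was not tested.

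**Figure D2:**
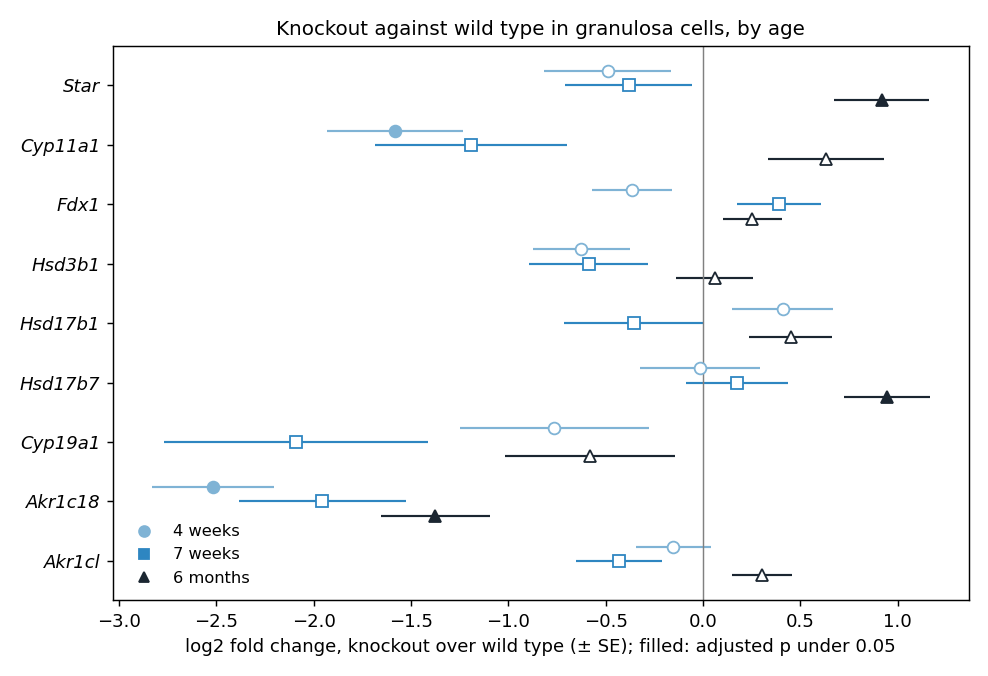
Log2 fold change, KO over WT, with SE (whiskers) for each enzyme gene in granulosa cells at 4 weeks, 7 weeks and 6 months; filled points passed an adjusted p of 0.05. Akr1c18 is below 0 at each age, and Cyp11a1 is at -1.58 at 4 weeks and at 0.63 at 6 months.

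The genotype difference in Cyp11a1 itself differed with age. In 1 model of all 42 granulosa libraries, the KO over WT difference was higher at 6 months than at 4 weeks by 2.20 ± 0.53 on the log2 scale (adjusted p = 0.0368) and higher than at 7 weeks by 1.80 ± 0.59 (adjusted p = 0.0448). Cyp11a1 was the only member called of 9 against 4 weeks, where 0.657% of genes were called and 0.531% called higher. Against 7 weeks Akr1cl was called too (0.72 ± 0.24, adjusted p = 0.0481), among 10.4% of genes called and 4.66% called higher, a number of genes (1492) that ran from 290 to 2298 when single libraries were left out. Star had 1.38 ± 0.43 (adjusted p = 0.166) and 1.27 ± 0.48 (adjusted p = 0.0708). DESeq2 called Star against 7 weeks (1.34, adjusted p = 0.0346), and in edgeR it passed there without KO library 2 or WT library 5 of 7 weeks or WT library 10 of 6 months (1.43 to 1.62, adjusted p of 0.0388 to 0.0421), and against 4 weeks without KO library 7 of 4 weeks (1.68, adjusted p = 0.0393). Akr1c18 had 1.14 ± 0.45 (adjusted p = 0.337) and 0.60 ± 0.49 (adjusted p = 0.422). Between 7 and 4 weeks no member was called, where 0.00699% of genes were, 1822 had an unadjusted p below 0.05, and DESeq2 and limma voom called no member either. The Cyp11a1 calls sat near the threshold. Leaving out any of 14 of 32 single libraries ended the first (adjusted p of 0.0501 to 0.105) and any of 16 of 28 the second (0.0505 to 0.0974), with values of 1.96 to 2.21 and 1.53 to 1.87. The 14 were KO libraries 2, 3, 4 and 6 and WT libraries 2, 4 and 6 of 4 weeks, and KO libraries 1, 2 and 5 and WT libraries 2, 5, 8 and 11 of 6 months. The 16 were KO libraries 1 to 3 and WT libraries 2 to 4 of 7 weeks, and KO libraries 1, 2, 3, 5 and 6 and WT libraries 2, 5, 6, 8 and 11 of 6 months. The Akr1cl call also ended in 16 of 28 (adjusted p of 0.0566 to 0.0993): KO libraries 1 to 3 and WT libraries 2 to 5 of 7 weeks, and KO libraries 1, 2, 5 and 6 and WT libraries 2, 5, 6, 8 and 11 of 6 months.

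Among WT granulosa cells Star and Fdx1 were higher and Hsd3b1 and Hsd17b7 lower at 6 months than at 4 weeks. Star was 342 to 1539 CPM at 6 months, against 205 to 700.4 CPM at 4 weeks (1.16 ± 0.29, adjusted p = 0.0105), and Fdx1 was higher too (0.49 ± 0.15, adjusted p = 0.037). Hsd3b1 was 1820 to 3556 CPM at 6 months, against 3517 to 8901 CPM at 4 weeks (-1.15 ± 0.21, adjusted p = 0.00055). Hsd17b7 fell as well (-0.97 ± 0.25, adjusted p = 0.0108), and Cyp11a1 did not pass (-0.44 ± 0.34, adjusted p = 0.469). These were 4 of 9 members where 8% of genes were called. Against 7 weeks, 6 month cells had more Fdx1 (0.79 ± 0.17, adjusted p = 0.00878) and less Hsd3b1 (-1.19 ± 0.23, adjusted p = 0.00283), 2 of 9 members where 1.36% of genes were called, and Cyp11a1 had -0.62 ± 0.38 (adjusted p = 0.495). Between 7 and 4 weeks no member and no gene (0%) was called by edgeR, with 1357 genes at an unadjusted p below 0.05, and DESeq2 called 1 gene and limma voom 0. Ages came in separate tables, so age and any batch cannot be told apart. The Fdx1 calls ended without WT libraries 4, 6 or 7 of 4 weeks or 1, 4, 7 or 8 of 6 months (0.41 to 0.47, adjusted p of 0.0503 to 0.115), and against 7 weeks without WT libraries 3 or 4 of that age (0.74 each, adjusted p of 0.0544 and 0.0625).

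In KO granulosa cells RNA for the steps up to pregnenolone was higher at 6 months than at 4 weeks, and age and any batch cannot be told apart here either. Star was 1034 to 1757 CPM at 6 months, against 164 to 543 CPM at 4 weeks, with no overlap (2.54 ± 0.34, adjusted p = 1.92e-06). Cyp11a1 (1.75 ± 0.41, adjusted p = 0.00394) and Fdx1 (1.08 ± 0.18, adjusted p = 2.85e-05) were higher, and so was Akr1c18 (1.37 ± 0.34, adjusted p = 0.00642). That made 4 of 9 members all higher, where 13.8% of genes were called and 6.58% called higher. Against 7 weeks Star (2.26 ± 0.38, adjusted p = 0.000205) and Fdx1 (0.65 ± 0.19, adjusted p = 0.0153) were higher. These were 2 of 9 members, where 22% of genes were called and 10% called higher, and no result about the members as a set is drawn. Between 7 and 4 weeks no member was called by edgeR, where 0.0419% of genes were and 1218 had an unadjusted p below 0.05, limma voom called no member and DESeq2 called Akr1c18. Its edgeR value was 1.60 ± 0.36 (adjusted p = 0.0894), with 390 to 1988 CPM at 7 weeks and 156 to 537.5 CPM at 4 weeks. It passed without KO library 1 of 4 weeks (1.87, adjusted p = 0.0319) or KO library 3 of 7 weeks (1.78, adjusted p = 0.0474). Against 7 weeks, Fdx1 did not pass without KO library 3 of 7 weeks (0.60, adjusted p = 0.0525). Cyp11a1 did pass there without KO library 4 of 7 weeks or KO library 4 of 6 months (1.60 and 1.34, adjusted p of 0.0163 and 0.034), and aromatase without KO library 4 of 7 weeks (2.21, adjusted p = 0.0317).

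The genes around the enzymes showed where else the pathway differed. The lists were chosen with earlier results of these data known, so their counts beside the share of all genes are a description. Among 24 tested regulators of steroidogenesis, 5 were lower and none higher in KO cells at 4 weeks. Esr2 is the knocked out gene, so its call was fixed in advance. The others were Lhcgr, the luteinizing hormone receptor gene (-4.24 ± 0.42), Ptgfr, the prostaglandin F receptor gene (-2.71 ± 0.45), the transcription factor gene Runx2 (-0.99 ± 0.21) and Prlr. Over all genes 1.35% were lower there. Lhcgr was lower at 7 weeks as well (-3.51 ± 0.54), where 0.35% of all genes were lower. Of the 24, it was the only gene called there besides the knocked out Esr2. At 6 months 4 of 24 were higher and 7 lower, Esr2 again among the lower, where 6.59% of all genes were higher and 6.05% lower. Nr4a1, an immediate-early nuclear receptor gene, was higher (1.94 ± 0.36), and Runx2 (-1.11 ± 0.19) and Nr5a1, the gene of steroidogenic factor SF-1 (-0.61 ± 0.12), were lower. The KO over WT difference of Lhcgr was higher at 6 months than at 4 weeks by 3.60 ± 0.65 (adjusted p = 0.00231), a value named after it was seen.

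Other steroid enzymes rose where they were called. Of 19 tested, 2 were higher and none lower at 4 weeks: Cyp1b1, which hydroxylates estrogens (1.15 ± 0.24), and Hsd3b7, an enzyme of bile acid synthesis (1.21 ± 0.31), where 0.979% of all genes were higher. At 7 weeks Cyp1b1 was the 1 of 19 called (1.65 ± 0.32), where 0.45% of all genes were higher. At 6 months 6 of 19 were higher and none lower, where 6.59% of all genes were higher, among them Cyb5a, the gene of cytochrome b5 (0.88 ± 0.13), Hsd3b7 (1.21 ± 0.21), the cortisone reductase gene Hsd11b1 (1.84 ± 0.35) and the P450 reductase gene Por (0.71 ± 0.21). The median over the 19 was 0.18, -0.26 and 0.36 at the 3 ages.

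Genes of cholesterol supply were mixed. At 4 weeks 2 of 15 genes were lower, the lipoprotein gene Apoe (-1.63 ± 0.32) and Soat1, which esterifies cholesterol for storage (-0.90 ± 0.22), and none was higher, where 1.35% of all genes were lower. None of 15 was called at 7 weeks. At 6 months 3 of 15 were higher and 3 lower, where 6.59% of all genes were higher and 6.05% lower: the lipase gene Lipe (1.07 ± 0.24) and the sterol carrier gene Stard5 (0.90 ± 0.26) were higher, and Vldlr, a lipoprotein receptor gene (-0.73 ± 0.19), and Soat1 (-0.51 ± 0.14) were lower. Of the cholesterol synthesis genes, Fdps, which makes farnesyl diphosphate, was the 1 of 19 called at 4 and at 7 weeks, lower at both (-0.99 ± 0.20 and -1.05 ± 0.22), where 1.35% and 0.35% of all genes were lower. At 6 months 3 of 20 were higher, where 6.59% of all genes were, Fdft1, which makes squalene (1.05 ± 0.28), Insig1, which restrains the pathway (1.04 ± 0.28), and Dhcr7, which acts at its end (0.90 ± 0.26).

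Cholesterol synthesis genes were higher in older granulosa cells of both genotypes, where age and any batch cannot be told apart. In the model of all 42 libraries, 14 of 20 were higher and none lower in WT cells at 6 months against 4 weeks, with a median of 1.21 over the 20 and -0.03 over all genes, of which 3.17% were called higher. In KO cells 19 of 20 were higher and none lower (median 1.63, all genes -0.06, 6.58% called higher). Against 7 weeks, 2 of 20 were higher in WT cells, Mvd (1.37 ± 0.35) and Cyp51 (1.33 ± 0.34), both named after their values were seen, and 12 of 20 in KO cells (medians 0.76 and 1.25), where 0.245% and 10% of all genes were called higher. Hsd17b7, which also serves that pathway, was not higher at 6 months against 4 weeks in either genotype (-0.97 ± 0.25 in WT and -0.02 ± 0.30 in KO).

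Genes with the most similar pattern over the 42 granulosa libraries were found by the mean absolute difference of centred log2(CPM + 1) values among 10297 genes. For Akr1c18 they were Ramp2 (0.57), Nt5e (0.58) and Gask1b (0.59), where the median gene differed by 1.16. For Cyp11a1 they were Tmem86a (0.38), Tpst2 (0.43) and Psap (0.43), against a median of 0.92. For Star they were Tmem97 (0.42), Cnn3 (0.44) and Alas1 (0.44), against 1.00. For aromatase they were Gypc (0.52), Dlgap5 (0.53) and Plin2 (0.53), against 0.84, and its own mean deviation was 0.68, so no close partner was found.

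Oocytes carried the RNA of a different part of the pathway. Aromatase, low in granulosa cells, averaged 69.9 ± 30.1, 68.7 ± 25.2 and 74.8 ± 26.1 CPM in KO oocytes (SD, n = 7, 12 and 4) and 82.1 ± 25.4, 44.8 ± 14.3 and 57.3 ± 21.6 CPM in WT oocytes (SD, n = 12, 5 and 11) at 4 weeks, 7 weeks and 6 months. These are 1605%, 3645% and 1708% of the KO granulosa means and 1196%, 592% and 770% of the WT granulosa means. Each of the 51 oocyte libraries held aromatase counts, and the lowest level was 14.5 CPM. Hsd17b7 stood at 67.2%, 67.0% and 76.9% of the granulosa level in KO and at 66.1%, 51.5% and 96.9% in WT. Fdx1 stood at 3.78%, 3.03% and 2.26% in KO and at 3.04%, 4.71% and 3.21% in WT. Per kilobase of exon in KO oocytes at 4 weeks, Hsd17b7 had 24.8 ± 7.48, Fdx1 18.6 ± 2.71 and aromatase 15.4 ± 6.66 CPM per kilobase, within each other's spread.

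**Figure D3:**
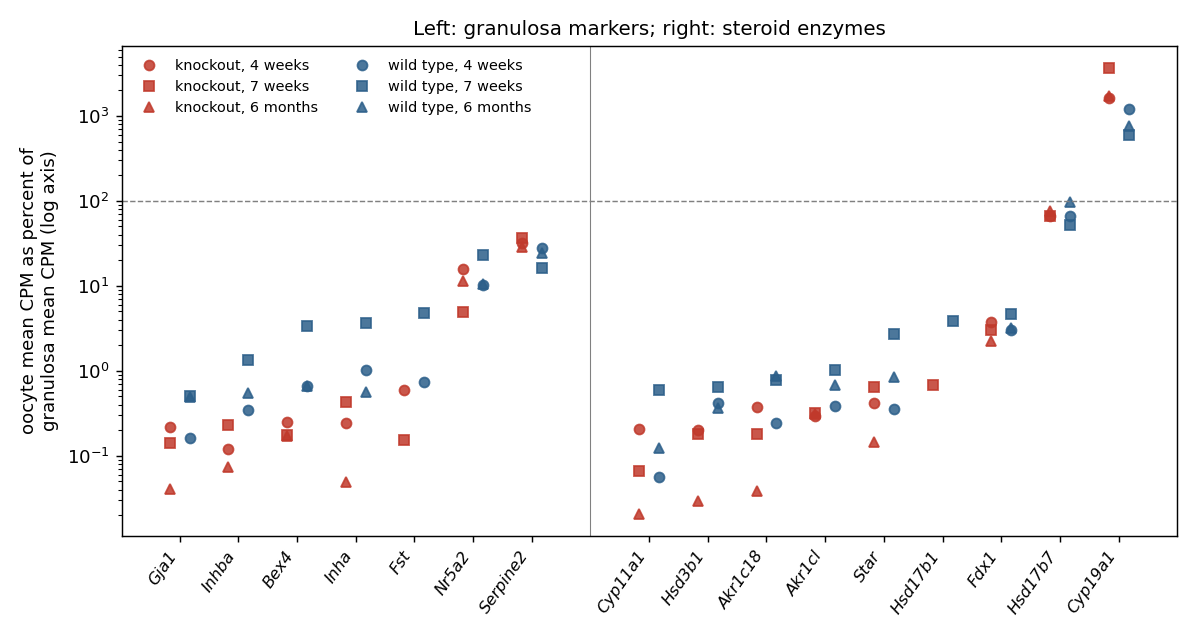
Mean CPM in oocytes as a percent of the mean CPM in granulosa cells of the same genotype and age, on a log axis, for granulosa markers (left) and enzyme genes (right). Cyp19a1 lies above the dashed line at 100%, and Cyp11a1, Hsd3b1 and Akr1c18 lie below 1%.

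Granulosa RNA carried into oocyte libraries was gauged by granulosa markers. Of 12 markers, 7 had a row in oocytes at 4 and 7 weeks and 6 at 6 months, and Amh, Inhbb, Foxl2, Fshr and Kctd14 were at 0 or without a row at each age. The median marker stood at 0.248%, 0.233% and 0.122% of its granulosa level in KO oocytes and at 0.745%, 3.67% and 0.618% in WT oocytes. Serpine2 and Nr5a2 were above that, at 4.94% to 36.6% in the 6 groups. Cyp11a1 (0.021% to 0.592%) and Hsd3b1 (0.0295% to 0.64%) were below the median marker in each of the 6 groups. At the median marker percent the granulosa aromatase level would give 0.00439 to 0.278 CPM, and that of Hsd17b7 0.189 to 5.14 CPM, while the measured group means were 44.8 to 82.1 CPM and 72.1 to 126 CPM.

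In 5 oocyte libraries, 2 KO at 7 weeks and 3 WT at 6 months, the granulosa marker Inha, an inhibin subunit gene, had no count. Those 5 held 58.9 to 89.7 CPM of aromatase, 82.7 to 140 CPM of Hsd17b7 and 59.4 to 75.8 CPM of Fdx1. They held 11.3 to 23.1 CPM of Akr1cl and at most 2.45 CPM of Star, 1.47 CPM of Cyp11a1 and 1.25 CPM of Hsd3b1, and no Akr1c18. Of the other granulosa markers, Serpine2 was 721 to 1214 CPM and Nr5a2 13.4 to 16.6 CPM in those 5. Inhba, Gja1 and Bex4 were at most 0.981, 0.471 and 0.239 CPM, and Fst was 0 in the 2 with a row. The medians over all libraries of each of the 6 oocyte groups were 43.5 to 88.2 CPM for aromatase, 74.95 to 144 CPM for Hsd17b7 and 55.4 to 79.9 CPM for Fdx1, so libraries without Inha were not low in these 3. In the other direction, oocyte markers in granulosa libraries were highest in WT library 6 of 4 weeks, at 688 CPM or 2.48% of the oocyte level. At that percent oocyte RNA would give 2.03 CPM of aromatase, where 11.1 CPM was measured. WT libraries 3, 4 and 5 of 7 weeks held 0.974% to 1.45%, which would give 0.437 to 0.651 CPM, and no other granulosa library was above 0.287%.

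**Figure D4:**
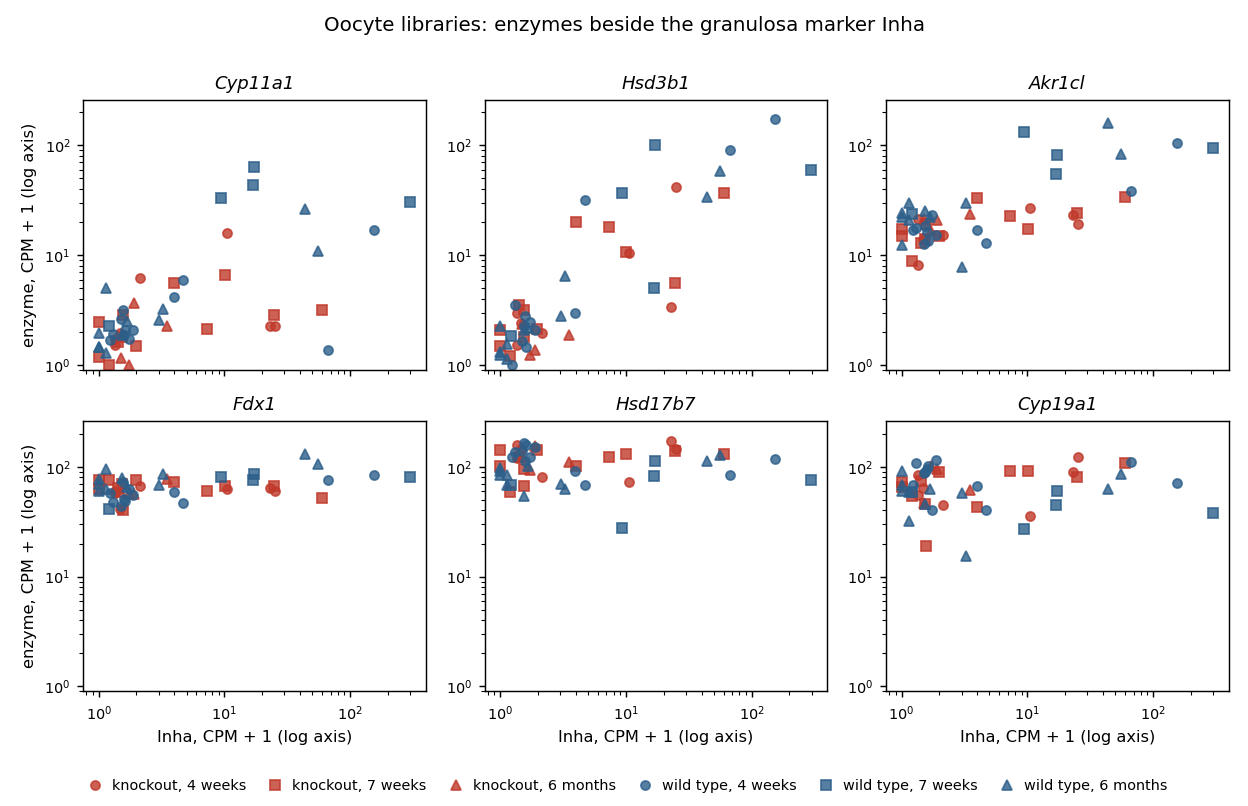
Inha CPM + 1 (x axis, log) against the CPM + 1 of 6 enzyme genes (y axis, log) in the 51 oocyte libraries, KO and WT marked by colour. Cyp19a1, Hsd17b7 and Fdx1 lie at 58.9 CPM or more where Inha is 0, and Cyp11a1 and Hsd3b1 are near 0 there.

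KO oocyte libraries at 7 weeks held less RNA of Cyp11a1 and Akr1cl, genes that were abundant in granulosa cells. Cyp11a1 was 0, 1.31 and 5.63 CPM (lowest, median, highest) in the 12 KO libraries, against 1.28, 29.6, 32.0, 42.9 and 63.2 CPM in the 5 WT libraries. WT library 3 lay inside the KO range and the other 4 lay above it (-4.14 ± 0.61, adjusted p = 0.0039). Akr1cl was 7.92, 16.3 and 33.0 CPM in KO, against 22.8, 54.4, 80.2, 93.4 and 131 CPM in WT (-1.90 ± 0.31, adjusted p = 0.0112). The same WT library was lowest. These were 2 of 9 members called, both lower, where 0.154% of 11711 genes were called and 0.137% called lower. That number of genes, 18, ran from 2 to 296 when single libraries were left out. Inha was 0, 0.765 and 58.9 CPM in KO and 0.213, 8.34, 15.8, 16.1 and 299 CPM in WT, with its lowest WT value again in library 3. With log2(Inha CPM + 1) of each library as a covariate, added after the data were seen, neither was called (Cyp11a1 -3.33, Akr1cl -1.47, adjusted p = 0.111 for both). In WT oocytes of 7 weeks Cyp11a1 stood at 0.592% and Akr1cl at 1.02% of the granulosa level, where the median granulosa marker stood at 3.67%. In KO oocytes they stood at 0.0661% and 0.318%, where the median marker stood at 0.233%. Carried granulosa RNA and oocyte RNA cannot be told apart in these libraries. No label pairs these libraries. With sample number as a block, an alternative over numbers 1, 2, 3 and 5 only, Hsd3b1 was called too (-2.07, adjusted p = 0.0273), which made 3 members.

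Other enzymes of the 7 week oocytes did not pass. Akr1c18 was 0, 0.243 and 6.97 CPM in KO, against 0.427, 1.49, 10.5, 53.1 and 56.4 CPM in WT (-3.996 ± 0.86, adjusted p = 0.0567). It passed without KO library 1 or 2 or WT library 3, with values of -4.67 to -4.07 (adjusted p of 0.0186 to 0.034). Akr1cl did not pass without WT library 1 or 2 (-1.63 and -1.85, adjusted p of 0.0575 and 0.0681). Star (-2.17 ± 0.71), Hsd3b1 (-2.14 ± 0.87) and Hsd17b1 (-2.55 ± 0.94) had values below 0 with adjusted p of 0.179, 0.246 and 0.207. Aromatase was 18.2, 72.9 and 106 CPM in KO, against 25.9, 36.9, 43.5, 58.3 and 59.5 CPM in WT (0.76 ± 0.32, adjusted p = 0.247). Hsd17b7 had 0.76 ± 0.27 (adjusted p = 0.193) and Fdx1 -0.04 ± 0.19.

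At 4 weeks 5 members passed the filter on low counts in oocytes and none was called, where 0.00924% of 10828 genes were called, 351 had an unadjusted p below 0.05, and DESeq2 and limma voom called no member. At 6 months 7 passed the filter and none was called, among 0.00818% of 12225 genes, with 396 at an unadjusted p below 0.05 and again no member by DESeq2 or limma voom. Aromatase had -0.25 ± 0.26 at 4 weeks and 0.42 ± 0.33 at 6 months, and Hsd17b7 0.04 ± 0.22 and 0.53 ± 0.23 (adjusted p of 0.998 and 0.999 for both genes). Fdx1 had -0.01 ± 0.16 and -0.34 ± 0.22. Of the pathway lists, Esr2, the knocked out gene, was the 1 gene called in KO against WT oocytes, at each age.

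Between ages, Cyp11a1, Star and Fdx1 were called in WT oocytes. In each comparison 1 or 2 of 8 members were called, and no result about the members as a set is drawn. Age and any batch cannot be told apart in oocytes either. Cyp11a1 was 1.28 to 63.2 CPM at 7 weeks, against 0.37 to 16.1 CPM at 4 weeks (3.39 ± 0.76, adjusted p = 0.0396), the 1 member called of 8, where 0.824% of genes were called and 0.245% called higher. That number of genes, 111, ran from 0 to 1686 when single libraries were left out. At 6 months it was 0.28 to 25.4 CPM and lower than at 7 weeks (-2.77 ± 0.77, adjusted p = 0.00595), again the 1 member called, among 25.7% of genes called and 12.6% called lower. Inha moved the same way, with medians of 0.676, 15.8 and 0.537 CPM at 4 weeks, 7 weeks and 6 months, and its part was not tested. Fdx1 was higher at 6 months than at 4 weeks, 59.4 to 131 against 42.7 to 82.8 CPM (0.52 ± 0.14, adjusted p = 0.00708). Star was called there as well (2.28 ± 0.76, adjusted p = 0.0303), which made 2 of 8 members where 15.4% of genes were called and 8.31% called higher. The Star value rested on WT library 7 of 6 months, at 54.9 CPM where the other 10 held 0 to 5.89 CPM, and without it was 0.42 (adjusted p = 0.741).

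Several oocyte age calls changed with 1 library. The Star call also ended without WT library 5 of 4 weeks (2.14, adjusted p = 0.05001). The 7 week Cyp11a1 call against 4 weeks ended without any of 11 of 17 libraries (3.27 to 3.44, adjusted p of 0.0501 to 0.183): WT libraries 1, 2, 4, 6, 7, 8, 10 and 12 of 4 weeks and 1, 2 and 4 of 7 weeks. Without WT library 11 of 4 weeks, which held 153 CPM of Inha, Akr1c18 passed at 7 weeks (5.49, adjusted p = 0.0305) and at 6 months (4.82, adjusted p = 0.00285), and so did Akr1cl (1.94 and 1.18, adjusted p of 0.0158 and 0.0104). Without WT library 5 of 4 weeks, Star (2.73), Akr1cl (1.36), Hsd17b7 (-1.04) and aromatase (-1.17) passed at 7 weeks, and Hsd17b7 at 6 months (-0.59). Hsd17b7 also passed at 7 weeks without WT library 5 of that age (-1.16, adjusted p = 0.0375). Without WT library 7 of 6 months, Star (-2.44) and Akr1cl (-1.29) passed at 6 months against 7 weeks.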

How the data were processed

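RNA of granulosa cells and oocytes from Esr2 knockout and wild type ovaries was sequenced by Smart-seq2, per the labels' protocols. The authors deposited 6 tables of estimated counts per gene, 1 for each cell type and age, in which 15.664% to 18.604% of values are not whole. Per the submitters' processing notes the tools were STAR, Partek and DESeq2 with build mm10; the counting step and its use of strand are not given in the sources used here. Tables of normalised values were not used. No 2 libraries held identical values.

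Counts were rounded to whole numbers. Levels are CPM over the library total. KO was compared with WT within each table by edgeR 4.0.16 in R 4.3.3 (filterByExpr, TMM, quasi-likelihood test, Benjamini-Hochberg adjustment over all genes tested). Ages, and differences between ages in the KO over WT difference, came from 1 model of all 6 groups of a cell type over genes shared by its 3 tables. The script was tested on simulated counts. Alternatives were RLE size factors, no filter on low counts, DESeq2 1.42.0, limma voom (limma 3.58.1), the joint model, sample number as a block, other carryover measures and leaving out each library. An Inha covariate and leaving out libraries under 1000000 counts were added after the data were seen.

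No label pairs KO with WT libraries. In 7 week oocytes the correlations of same-numbered deviations were 0.543, 0.118, 0.154 and 0.243 for numbers 1, 2, 3 and 5. Only numbers 1 and 5 matched their own number best. The block used only libraries whose number occurs in both genotypes. Named genes are all 10 members, Esr2, up to 4 called genes with the smallest p per list and comparison, and the 3 genes most alike to Akr1c18, Cyp11a1, Cyp19a1 and Star with a mean of at least 5 CPM. Members and lists were chosen with earlier results of these data known. One list of markers of another cell type is not reported here.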

Additional observations from a re-analysis of the deposited data

Results flagged for a closer look

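Of 72 gene and group combinations of 4 to 10 libraries, 6 had 1 library far from the rest, where chance gives about 1 in 20. Hsd3b1 was 1167 CPM in KO granulosa library 4 of 6 months, and 2408 to 3072 CPM in the others. In KO oocytes of 4 weeks, Fdx1 was 40.1 CPM in library 1 and 56.7 to 66.2 CPM in the others, and Akr1c18 was 4.26 CPM in library 4 and 0.178 to 0.637 CPM in the others. WT oocyte library 3 of 7 weeks was lowest for Cyp11a1, at 1.28 CPM where the others held 29.6 to 63.2 CPM, and for Fdx1, at 40.6 CPM where the others held 75.2 to 85.6 CPM. Fdx1 was 76.3 CPM in KO oocyte library 1 of 6 months and 55.6 to 57.8 CPM in the others.

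The KO over WT difference in granulosa cells was called different between ages for Cyp11a1, by 2.20 (6 months minus 4 weeks) and 1.80 (6 months minus 7 weeks) on the log2 scale, and for Akr1cl by 0.72 (6 months minus 7 weeks). Leaving out 1 library ended these calls in 14 of 32, 16 of 28 and 16 of 28 fits, in that order. At 7 weeks every KO granulosa library lay above the WT median of Fdx1 (log2 fold change 0.39), while every KO oocyte library lay below the WT oocyte median (-0.042), and this difference between cell types was not tested.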

How the results depend on the processing

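Of the values of single members under the alternatives, 3275 stayed on the same side of the threshold, 46 passed it anew and 86 no longer passed. No called value changed sign, and 106 values that did not pass did. Members called in granulosa KO against WT at 4 weeks were 2, and 1 with sample number as a replicate block (Cyp11a1 -1.43, adjusted p = 0.0568). At 7 weeks they were 0, and 1 under RLE, no filter, DESeq2, limma voom, the replicate block, the joint model and without libraries under 1000000 counts: Akr1c18 each time, with -1.98 to -2.64 and adjusted p from 0.000466 to 0.0464. At 6 months the block ended the Akr1c18 call (-1.30, adjusted p = 0.101) and the joint model that of Star (0.89, adjusted p = 0.0561). The counts for KO 7 weeks against 4 weeks were 0 and 1 under DESeq2, and for KO 6 months against 7 weeks 2 and 4 under DESeq2. For the KO effect of 6 months minus 4 weeks they were 1, and 0 without the filter and under limma voom. For 6 months minus 7 weeks they were 2, and 0 without the filter and 1 under limma voom. In oocytes, 7 week KO against WT had 2, and 0 under limma voom, 0 with the Inha covariate and 1 in the joint model, with 3 under the replicate block. WT 7 weeks against 4 weeks had 1, and 3 under DESeq2 and limma voom; DESeq2 gave Cyp11a1 no adjusted p there. WT 6 months had 2 against 4 weeks and 1 against 7 weeks, and under limma voom 1 and 3. The causes were not tested. The block was an alternative only, in either cell type. In granulosa cells of 7 weeks the correlations of same-numbered deviations ran from -0.197 to 0.434.

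Leaving out 1 library gave 2 members at 4 weeks, 0 to 1 at 7 weeks and 2 to 3 at 6 months in granulosa KO against WT, 3 to 4 and 1 to 2 for WT 6 months against 4 and 7 weeks, 0 to 1 for KO 7 weeks against 4 weeks, 4 and 1 to 4 for KO 6 months against 4 and 7 weeks, and 0 to 2 and 0 to 3 for the KO effects of 6 months minus 4 and 7 weeks. In oocytes it gave 1 to 3 for 7 week KO against WT, and 0 to 5, 1 to 4 and 1 to 3 for WT 7 weeks against 4 weeks, 6 months against 4 weeks and 6 months against 7 weeks.

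Counts of all genes called moved more. Granulosa KO against WT at 4 weeks gave 283, against 512 by DESeq2 and 504 in the joint model. At 7 weeks it gave 96, against 564 by DESeq2, 285 in the joint model and 42 without the small libraries. At 6 months it gave 1580, against 645 with the replicate block and 803 in the joint model. By DESeq2 and limma voom, KO 7 weeks against 4 weeks gave 42 and 1 in place of 6. DESeq2 gave 348 in place of 194 for WT 6 months against 7 weeks, 55 in place of 1 for the 7 week minus 4 week effect, and, with limma voom, 179 and 53 in place of 94 and 2332 and 956 in place of 1492 for the 6 month effects. For 7 week oocytes, 18 became 30 without the filter, 202 by DESeq2, 1 by limma voom, 38 with the block, 1 with the covariate and 3 in the joint model. For WT oocytes of 7 weeks against 4 weeks, 111 became 15 without the filter, 1109 by DESeq2 and 215 by limma voom. Depth limits Cyp19a1 in granulosa cells, Cyp17a1, and the granulosa enzymes in oocytes, which rest on few counts.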
